A study of Homo sapiens with 6 samples.

Results

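The expressed ZNF zinc finger genes of U-937 cells are described here: the rows named ZNF plus a number, with at most 1 further letter, whose mean over the 6 libraries was at least 5. Of 26902 rows, 527 bore such a name and 240 of them met the cut. The other 287 fell below it, and 70 of these were listed at 0 in all 6 libraries. Just inside the cut, ZNF670, ZNF552 and ZNF268 each had a mean of 5.01, and just outside it ZNF583 had 4.98, ZNF684 4.94 and ZNF653 4.85. Members were thus chosen by their level averaged over both groups, so the levels themselves are a description with no test. All 240 members passed the filter on low values and were listed at 1 or above in every library.

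U-937 is a human leukemia cell line of monocyte-like character, labelled as AML with a KMT2A-MLLT10 fusion. The partners of the fusion are given as labelled, are uncertain and were not checked in these data. Both groups came from a Cas9 clone of this line and received 1 guide by lentivirus, sgMETTL1.3 against METTL1 or the control guide sgNS, with selection in blasticidin and hygromycin and harvest about 8 to 10 days after transduction. METTL1 encodes a methyltransferase that, with WDR4, adds N7-methylguanosine to tRNAs. There were 3 libraries of poly(A)-selected RNA per group, and nothing in the labels says whether they came from separate cultures, so a p-value speaks only of the scatter among these libraries, which may be technical. With 1 clone and 1 METTL1 guide, loss of METTL1 and other effects of clone or guide cannot be told apart.

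Zinc finger proteins of the C2H2 type carry tandem fingers, each of which reads a few bases of DNA, and they form the biggest group of human transcription factors. Many begin with a KRAB box, which binds the corepressor TRIM28 (KAP1); TRIM28 brings in SETDB1 and HP1 proteins, which build heterochromatin over transposons. Their genes multiplied by tandem duplication and lie in clusters, above all on chromosome 19. Others have no KRAB box and act as activators, chromatin factors or RNA-binding proteins.

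METTL1 had values of 8.28, 5.94 and 7.42 in the sgMETTL1.3 libraries, against 19.7, 22.0 and 20.3 in the sgNS libraries. The log2 fold change was -1.41 ± 0.131 (SE; limma adjusted p = 2.41e-06), so the targeted transcript followed the labels. The values are on a spike-in scale, in which each library's TPM was scaled until its ERCC spike-in RNAs summed alike, and their read depth is unknown. The factor was 1.03, 0.832 and 0.949 in the sgMETTL1.3 libraries, against 1.13, 1.23 and 1.21 in the sgNS libraries, and the median gene of all 12449 tested had a log2 fold change of -0.32 on this scale and 0.01 as TPM. Counts of called members are therefore given on both scales. Among myeloid markers 10 of 12 had a mean of at least 1, with MPO and ELANE below it, and the list summed to 711 to 988 in the sgMETTL1.3 libraries, against 1538 to 1672 in the sgNS libraries. The erythroid and the epithelial markers were all under 0.1, while 3 of 4 B cell, 2 of 4 T and NK cell and 2 of 4 fibroblast and endothelial markers reached 1. The T and NK list summed to 161 to 244 in the sgMETTL1.3 libraries, against 306 to 340 in the sgNS libraries. The part of these shifts in the ZNF values was not tested, and in bulk RNA fewer cells of a type and less RNA per cell cannot be told apart. The library of sgMETTL1.3 replicate 1 stood apart by base composition. Its log2 values minus the mean of replicates 2 and 3 followed the GC content of the transcript, with a Spearman coefficient of 0.87 across members and 0.88 across other genes, a description with no test. The median of that difference was -0.08 for the members and 0.08 for the other genes, so results are also given without this library; its part in them was not tested beyond that.

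By build, 236 of the members were protein coding and 4 were pseudogenes in GENCODE 29 (ZNF252P, ZNF271P, ZNF767P and ZNF815P). The translated coding sequences held a median of 10 matches to the C2H2 finger pattern and at most 31, and 4 of them held none. A KRAB box pattern was found in 116 members and not found in 120. Chromosome 19 carried 92 members, chromosome 7 carried 21 and chromosome 16 carried 20. Transcripts of members had a median GC content of 44.8% (33.5% to 71.1%), against 49.0% for the 9727 other genes with a value. In 17 members at least 20% of the 50-base windows also occurred in another gene, and 57 members overlapped another gene on the same strand, so that counts could be split between copies or neighbours. On the opposite strand 104 overlapped a gene, and whether counting used strand is not given in the sources used here.

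Promoters were read for 203 of the 240 members, from 250 bases before to 50 after the start in RefSeq (GRCh38.p14), and searched on both strands for 5 short motifs. The ETS motif CCGGAAG was present in 44.3% of the members, 21.1% of 7548 other genes with a mean of at least 5 and 10.7% of all 27305 promoters. Among members it was found in 49.0% with and 39.8% without a KRAB box pattern. The GC box GGGCGG was present in 64.0% of the members, 71.4% of the other expressed genes and 44.6% of all promoters. The E-box CACGTG (9.36%, 11.1% and 7.43%), the ZNF143 core ACTACAA (6.90%, 4.29% and 2.95%) and the NRF1 motif (2.46%, 2.54% and 1.36%, each in the same order of sets) were rarer. These are letter matches and not shown to be bound. Printed below are the promoters of the 2 members with the highest fold changes and of the lowest one, which hold the ETS letters. The promoter of ZNF664, also among the lowest members, held GC boxes and no ETS match and is not printed. Capitals mark a match, CCGGAAG or its reverse complement in all 3 printed promoters, and CACGTG as well in ZNF593.
ZNF776 (chr19:57746565-57746864, plus strand): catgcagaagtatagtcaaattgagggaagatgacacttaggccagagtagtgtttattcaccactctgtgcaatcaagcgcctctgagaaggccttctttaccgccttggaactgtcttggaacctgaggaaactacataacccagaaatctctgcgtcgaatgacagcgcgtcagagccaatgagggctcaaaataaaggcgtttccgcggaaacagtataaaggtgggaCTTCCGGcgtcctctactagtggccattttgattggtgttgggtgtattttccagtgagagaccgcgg
ZNF461 (chr19:36666788-36667087, minus strand): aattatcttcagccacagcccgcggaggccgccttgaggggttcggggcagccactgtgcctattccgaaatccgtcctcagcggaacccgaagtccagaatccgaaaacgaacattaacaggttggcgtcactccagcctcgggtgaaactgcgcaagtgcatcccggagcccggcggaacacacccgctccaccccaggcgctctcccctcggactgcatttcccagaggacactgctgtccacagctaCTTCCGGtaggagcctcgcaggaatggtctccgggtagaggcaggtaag
ZNF593 (chr1:26169658-26169957, plus strand): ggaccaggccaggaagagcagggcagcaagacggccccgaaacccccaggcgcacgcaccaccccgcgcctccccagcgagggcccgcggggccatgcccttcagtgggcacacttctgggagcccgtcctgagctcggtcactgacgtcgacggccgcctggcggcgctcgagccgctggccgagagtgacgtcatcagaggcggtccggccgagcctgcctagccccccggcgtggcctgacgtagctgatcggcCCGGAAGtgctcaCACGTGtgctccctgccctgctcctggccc
In these 300 bases GC content was 48.7% for ZNF776, 61.0% for ZNF461 and 72.7% for ZNF593, with 13, 22 and 30 CpG dinucleotides in that order. By the ETS motif, the median log2 fold change was -0.13 over the 90 members with it (23 called lower, 8 higher) and -0.10 over the 113 without it (30 lower, 6 higher). As TPM 2 were called lower and 34 higher with it, and 9 lower and 42 higher without it. By the GC box, the median was -0.16 over the 130 members with it (41 lower, 6 higher) and -0.09 over the 73 without it (12 lower, 8 higher). As TPM 8 were called lower and 45 higher with it, and 3 lower and 31 higher without it. The GC box was present in 77.4% of the 53 promoters of members called lower and 42.9% of the 14 of members called higher, and no test was made of either motif. Over all tested genes 49.3% were called lower and 6.40% higher on the spike-in scale, and 25.3% and 24.8% as TPM.

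Most expressed ZNF genes did not pass the test on the spike-in scale. Of the 240 members 62 fell (25.8%), 19 rose (7.92%) and 159 were not called at an adjusted p of 0.05 by limma. Over all 12449 tested genes 49.3% fell and 6.40% rose, and over the 9893 other tested genes with a mean of at least 5 the shares were 55.9% and 4.82%. The median log2 fold change was -0.11 for the members and -0.37 for those other genes. As TPM the members' calls lay mostly on the other side, with 13 that fell (5.42%) and 94 that rose (39.2%), against 25.3% and 24.8% of all tested genes and 28.9% and 23.5% of the others. The median as TPM was 0.22 for the members and -0.02 for the others, so the members' median changed sign with the scale while its distance from the other genes stayed near 0.26 on the spike-in scale and 0.24 as TPM. Members are not replicates, so no p is given for that distance.

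**Figure D1:**
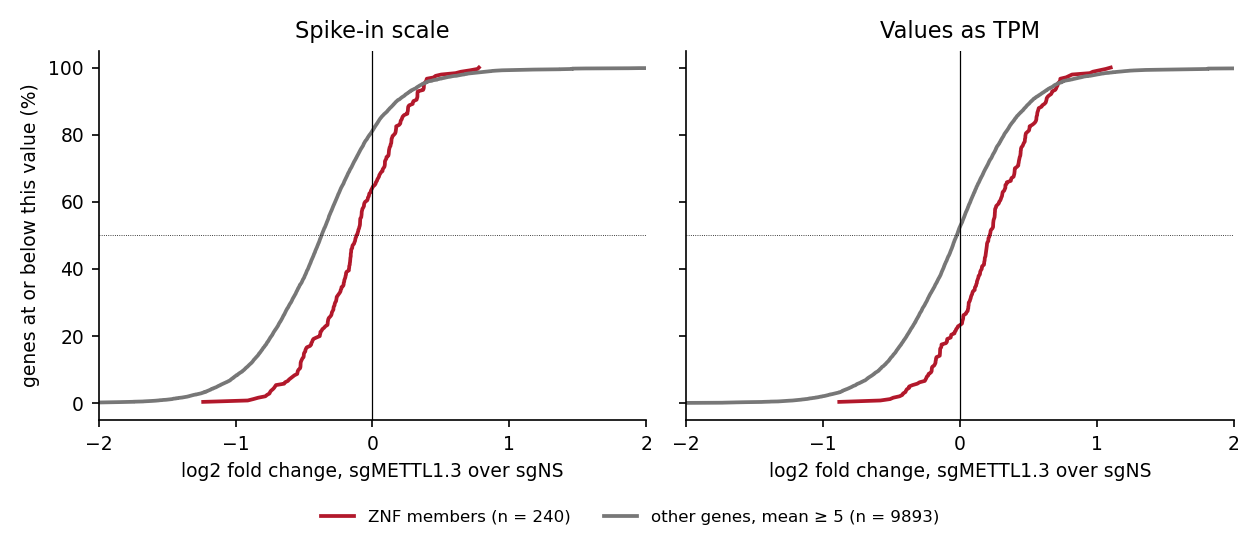
Cumulative share (%) of genes against the log2 fold change of sgMETTL1.3 over sgNS, on the spike-in scale and as TPM, for the 240 ZNF members and for other genes with a mean of at least 5. Over most of its length the members' curve lies to the right of the other genes' on both scales, and the 2 meet at the upper end, with medians of -0.11 and -0.37 on the spike-in scale and 0.22 and -0.02 as TPM.

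Every sgMETTL1.3 library showed this distance. Relative to the sgNS mean, the median log2 ratio of the members was -0.09, -0.23 and -0.03 in the sgMETTL1.3 libraries, where that of the other genes was -0.30, -0.51 and -0.32. In the sgNS libraries the members had -0.07, 0.06 and 0.01 and the other genes -0.07, 0.05 and 0.02. The members thus stood 0.21, 0.28 and 0.29 above the other genes in the 3 sgMETTL1.3 libraries, against -0.00077, 0.0061 and -0.011 in the 3 sgNS libraries. The sgNS values centre near 0 by construction, since these libraries were set against their own mean, so only their spread can be read. The smallest distance was that of sgMETTL1.3 replicate 1. Without this library 82 members fell (34.2%) and 28 rose (11.7%), beside 61.4% and 6.43% of all tested genes and 67.8% and 5.09% of the others, and the medians were -0.13 for the members and -0.42 for the others. As TPM without it 21 members fell (8.75%) and 151 rose (62.9%), beside 34.3% and 36.3% of all tested genes and 39.0% and 36.9% of the others. With all libraries and a correction for GC content, 84 members fell (35.0%) and 42 rose (17.5%), beside 60.1% and 8.35% of all tested genes and 66.9% and 6.53% of the others. That correction as TPM gave 24 members that fell (10.0%) and 129 that rose (53.8%), beside 33.9% and 30.7% of all tested genes and 38.6% and 30.1% of the others.

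**Figure D2:**
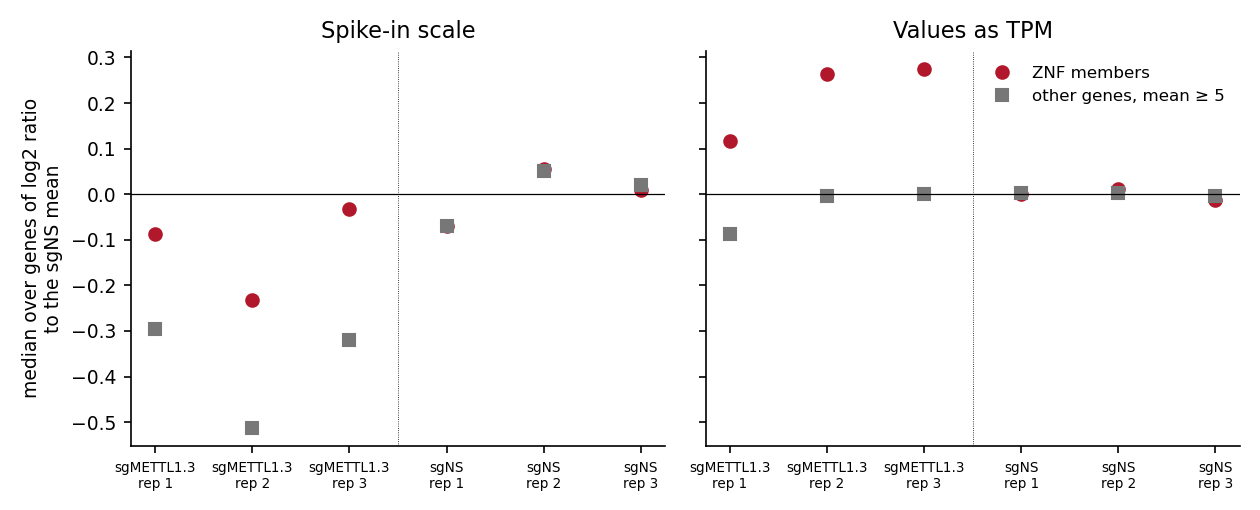
Median log2 ratio to the sgNS mean in each library, for the ZNF members and for other genes with a mean of at least 5, on the spike-in scale and as TPM; each point is 1 library. In the sgMETTL1.3 libraries the members' medians lie 0.21 to 0.29 above the other genes' on the spike-in scale, and in the sgNS libraries the 2 nearly coincide.

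Summed over the 240 members, the spike-in scaled level was 4513 ± 321 in sgMETTL1.3 cells and 5296 ± 250 in sgNS cells (SD, n = 3), a ratio of 0.852. As TPM the sum was 5052 ± 369 in sgMETTL1.3 cells and 4606 ± 48.2 in sgNS cells, a ratio of 1.10. The order of the means thus turned with the scale. On the spike-in scale the sums did not overlap, with 4170 to 4806 in the sgMETTL1.3 libraries and 5032 to 5530 in the sgNS libraries. As TPM they did, since sgMETTL1.3 replicate 1 had 4625 and the sgNS libraries 4555 to 4651. The median member had a level of 13.1 ± 1.00 in sgMETTL1.3 cells and 13.7 ± 0.544 in sgNS cells on the spike-in scale, with overlapping groups. As TPM it was 14.7 ± 1.39 in sgMETTL1.3 cells and 11.9 ± 0.147 in sgNS cells, a ratio of 1.23, and the groups did not overlap. Levels per length over both groups ran between 5.01 and 256 with a median of 13.7, against 33.7 for the other expressed genes. Taken gene by gene on both scales, 19 members rose on both, 13 fell on both, and none was called in opposite directions. As TPM all fold changes lie higher by nearly the same amount, so a member that rose on the spike-in scale could hardly fall as TPM. The rises on both scales are thus no separate support. A further 49 fell on the spike-in scale only, 75 rose as TPM only and 84 were called on neither.

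Member log2 fold changes lay between -1.24 and 0.78 on the spike-in scale, 1 member was at or below -1 and 0 were at or above 1. As TPM they lay between -0.88 and 1.10, with 0 at or below -1 and 3 at or above 1 (ZNF776, ZNF461 and ZNF134). Without sgMETTL1.3 replicate 1 on the spike-in scale, 3 were at or below -1 (ZNF593, ZNF385A and ZNF692). Of the 62 that fell, 35 had -0.5 or less, and of the 19 that rose, 5 had 0.5 or more. As TPM 3 of the 13 that fell and 44 of the 94 that rose passed those sizes. Values of the 2 groups did not overlap for 76 members that were lower in every sgMETTL1.3 library and 26 that were higher (31.7% and 10.8%), beside 53.4% and 8.66% of all tested genes and 59.5% and 6.70% of the others. As TPM 32 members were lower (13.3%) and 116 higher (48.3%) without overlap, beside 32.1% and 30.7% of all tested genes and 36.4% and 29.4% of the others.

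**Figure D3:**
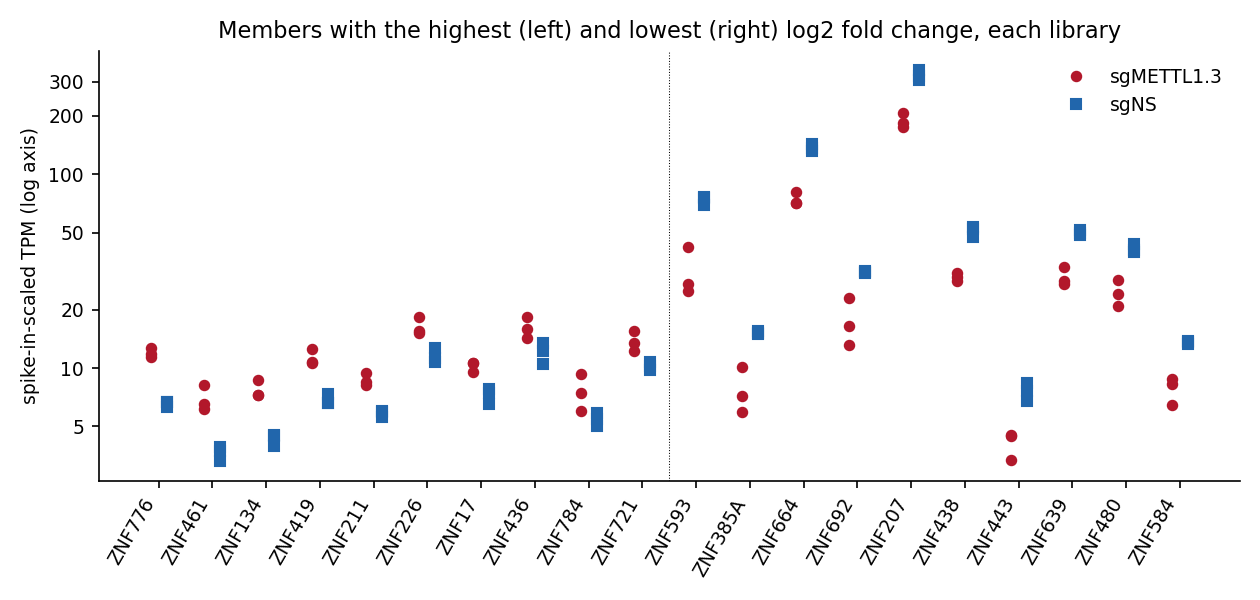
Values per library on the spike-in scale (log axis), sgMETTL1.3 left of sgNS for each gene, for the 10 members with the highest and the 10 with the lowest log2 fold change among called members without overlap; each point is 1 library. ZNF776 lies at 11.4 to 12.6 in sgMETTL1.3 cells and 6.32 to 6.70 in sgNS cells, and ZNF593 at 24.97 to 42.3 in sgMETTL1.3 cells and 69.2 to 76.4 in sgNS cells.

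The members that rose most were mainly genes of low level from chromosome 19. ZNF776 (chromosome 19, 57746796 to 57758159, plus strand, GRCh38) had 11.4, 11.9 and 12.6 in the sgMETTL1.3 libraries, against 6.32, 6.66 and 6.70 in the sgNS libraries. Its means were 11.97 ± 0.613 in sgMETTL1.3 cells and 6.56 ± 0.208 in sgNS cells (SD, n = 3). The log2 fold change was 0.78 ± 0.115 (SE; limma adjusted p = 8.43e-05), and 1.10 as TPM. It was the member that rose most on the spike-in scale, its groups lay far apart, and its promoter is printed above. ZNF461 had 6.15, 6.56 and 8.13 in the sgMETTL1.3 libraries, against 3.92, 3.72 and 3.31 in the sgNS libraries (log2 fold change 0.77, SE 0.136, limma adjusted p = 0.000344). ZNF134 had 7.26, 7.26 and 8.70 in the sgMETTL1.3 libraries, against 3.98, 4.52 and 4.48 in the sgNS libraries (0.71, SE 0.127, limma adjusted p = 0.000368). Replicate 3 was the highest sgMETTL1.3 library for all 3 of these genes.

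ZNF419 had 10.8, 10.7 and 12.6 in the sgMETTL1.3 libraries, against 6.64, 6.63 and 7.30 in the sgNS libraries, a log2 fold change of 0.65; 27.6% of its windows also occur in another gene, so its value is uncertain. ZNF211 had 8.17, 8.48 and 9.45 in the sgMETTL1.3 libraries, against 5.60, 5.98 and 5.94 in the sgNS libraries (0.50). Next came ZNF226 (0.46), ZNF17 (0.45) and ZNF436 (0.39), the last on chromosome 1, and then ZNF784 (0.39) and ZNF721 (0.38, chromosome 4). All 10 rose as TPM too, by 0.70 to 1.10, which the upward shift of all fold changes as TPM made nearly certain. ZNF784, ZNF436 and ZNF721, which lay near the threshold, lost their calls in some fits that left out 1 library. Such fits hold fewer libraries, so a lost call alone does not show that the gene depended on the library left out. ZNF784 had 9.32, 5.97 and 7.43 in the sgMETTL1.3 libraries, against 5.04, 5.46 and 5.88 in the sgNS libraries, and without sgMETTL1.3 replicate 1 its log2 fold change of 0.25 was not called (limma adjusted p = 0.0768). It was also not called without sgMETTL1.3 replicate 3 (0.40), sgNS replicate 1 (0.34) or sgNS replicate 2 (0.39), with limma adjusted p of 0.117, 0.121 and 0.0858, nor with a GC correction (0.14, limma adjusted p = 0.278). Its transcript has 64.8% GC. ZNF436 lost its call without sgMETTL1.3 replicate 3 (0.30) or sgNS replicate 1 (0.30), and ZNF721 without sgMETTL1.3 replicate 3 (0.29), sgNS replicate 1 (0.38) or sgNS replicate 3 (0.35).

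Most of the 10 members that fell most lay above the members' median level of 13.7. ZNF443 (5.85), ZNF584 (10.7) and ZNF385A (11.5) lay below it. The 10 lay mostly off chromosome 19, as did 148 of all 240 members. ZNF593, whose yeast counterpart acts in export of the large ribosomal subunit from the nucleus, had 42.3, 24.97 and 27.3 in the sgMETTL1.3 libraries, against 69.2, 76.4 and 75.5 in the sgNS libraries. Its log2 fold change was -1.24 ± 0.179 (SE; limma adjusted p = 0.000378), with -0.88 as TPM and -1.46 without sgMETTL1.3 replicate 1, the highest library of its group. It lies on chromosome 1 at 26169871 to 26170873 (GRCh38, plus strand), and its promoter is the GC-rich one printed above. ZNF385A, which encodes a p53-binding and RNA-binding protein, had 10.2, 5.94 and 7.20 in the sgMETTL1.3 libraries, against 15.1, 15.5 and 14.95 in the sgNS libraries (-0.91, limma adjusted p = 0.000474). ZNF664 had 71.1, 71.4 and 81.2 in the sgMETTL1.3 libraries, against 132, 142 and 136 in the sgNS libraries (-0.87, limma adjusted p = 1.09e-05). All 3 fell without overlap of the groups.

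ZNF692 had 23.0, 13.2 and 16.4 in the sgMETTL1.3 libraries, against 31.6, 31.4 and 30.7 in the sgNS libraries (-0.83). ZNF438 (-0.77), ZNF443 (-0.75), ZNF639 (-0.75), ZNF480 (-0.74) and ZNF584 (-0.73) followed. ZNF443 shares 40.2% of its windows with other genes and is uncertain. As TPM, 9 of the 10 lowest members were still called lower; ZNF480 had -0.39 and was not called (limma adjusted p = 0.0565).

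Among the most abundant members, ZNF207, which encodes a spindle and kinetochore protein that binds BUB3, led with 183, 176 and 206 in the sgMETTL1.3 libraries, against 308, 343 and 321 in the sgNS libraries. It fell by 0.78 on the log2 scale (SE 0.100; limma adjusted p = 2.74e-05), and by 0.42 as TPM. ZNF146, a protein made almost wholly of fingers, had 112 ± 12.1 in sgMETTL1.3 cells and 172 ± 7.89 in sgNS cells (-0.62), and ZNF770 had 55.7 ± 7.39 in sgMETTL1.3 cells and 85.1 ± 5.61 in sgNS cells (-0.61). Neither of these was called as TPM (-0.26 and -0.25, limma adjusted p = 0.093 and 0.174). ZNF638, an RNA- and DNA-binding protein that takes part in silencing unintegrated retroviral DNA, went the other way among the abundant members. It had 103, 116 and 130.5 in the sgMETTL1.3 libraries, against 96.8, 104 and 101 in the sgNS libraries, and its log2 fold change of 0.21 was not called (limma adjusted p = 0.121). It rose as TPM (0.56) and also on the spike-in scale without sgMETTL1.3 replicate 1 (0.29).

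Described were 7 of 16 listed repressors of transposons and heterochromatin with a KRAB box. On the spike-in scale 2 of the 7 fell and none rose, with a median of -0.10. As TPM none fell and 3 rose, with a median of 0.25. Over all tested genes 49.3% fell and 6.40% rose, and as TPM 25.3% fell and 24.8% rose. ZNF93, a repressor of LINE-1 elements, had 6.18, 6.72 and 6.43 in the sgMETTL1.3 libraries, against 8.13, 8.30 and 7.99 in the sgNS libraries (-0.30, limma adjusted p = 0.0437). As TPM its log2 fold change was 0.02, so its direction rests on the scale. On the spike-in scale its call was lost with a GC correction (-0.17, limma adjusted p = 0.161), with a replicate block (limma adjusted p = 0.13), and without sgMETTL1.3 replicate 3 (-0.30) or sgNS replicate 1 (-0.30), 2 (-0.28) or 3 (-0.31). ZNF587B had 4.67 ± 0.46 in sgMETTL1.3 cells and 6.79 ± 0.828 in sgNS cells (-0.46, limma adjusted p = 0.0102), and was not called without sgNS replicate 2 (-0.39, limma adjusted p = 0.0653). ZNF268 had 5.63 ± 0.536 in sgMETTL1.3 cells and 4.40 ± 0.395 in sgNS cells (0.29, limma adjusted p = 0.0677) and rose as TPM (0.60) and without sgMETTL1.3 replicate 1 (0.36). ZNF274 and ZNF445 were looked at after their values were seen. ZNF274, which recruits SETDB1 to the ends of other ZNF genes, had 29.5, 27.4 and 31.2 in the sgMETTL1.3 libraries, against 30.1, 34.3 and 30.5 in the sgNS libraries (-0.10, not called). ZNF445, a keeper of imprinting marks, had 19.9, 19.3 and 20.5 in the sgMETTL1.3 libraries, against 20.5, 21.8 and 20.2 in the sgNS libraries (-0.06, not called). On the spike-in scale the groups overlapped for both. As TPM both were called higher, ZNF274 by 0.25 (limma adjusted p = 0.038) and ZNF445 by 0.28 (limma adjusted p = 0.0276).

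Among 11 described factors of promoters and enhancers, of 14 listed, 4 fell and none rose, with a median of -0.17; as TPM none fell and 2 rose, with a median of 0.18. Without sgMETTL1.3 replicate 1 the count was 5 that fell and none that rose, with a median of -0.26. Over all tested genes 49.3% fell and 6.40% rose, 25.3% and 24.8% as TPM, and 61.4% and 6.43% without that library. ZNF148, which binds GC-rich promoters, had 15.3 ± 1.67 in sgMETTL1.3 cells and 21.7 ± 1.87 in sgNS cells (-0.48). ZNF395 had 30.8 ± 3.85 in sgMETTL1.3 cells and 40.1 ± 1.17 in sgNS cells (-0.38). ZNF410, an activator of CHD4, had 32.5 ± 1.74 in sgMETTL1.3 cells and 40.0 ± 1.23 in sgNS cells (-0.29, limma adjusted p = 0.0262), and 83.5% of its windows also occur in another gene. As TPM these 3 had -0.14, -0.03 and 0.06 and none was called. On the spike-in scale ZNF395 lost its call without sgNS replicate 3 (-0.36), and ZNF410 with a replicate block (limma adjusted p = 0.0858) or without sgNS replicate 1 (-0.31), 2 (-0.29) or 3 (-0.27). ZNF143, which activates small nuclear RNA genes and many promoters, was read after its value was seen and had 20.03, 18.9 and 22.0 in the sgMETTL1.3 libraries, against 21.4, 24.0 and 23.6 in the sgNS libraries (-0.17), with overlapping groups.

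Of 11 described chromatin and corepressor factors, among 16 listed, 3 fell and none rose, with a median of -0.16. As TPM 1 fell and 4 rose, with a median of 0.20. Set beside these, 49.3% of all tested genes fell and 6.40% rose, and 25.3% and 24.8% as TPM. ZNF280C had 11.0 ± 0.769 in sgMETTL1.3 cells and 18.7 ± 0.672 in sgNS cells (-0.71), and it was the one that fell as TPM (-0.37). ZNF217, an oncogene product that works with the CoREST and LSD1 corepressor, had 30.1 ± 3.05 in sgMETTL1.3 cells and 43.9 ± 3.45 in sgNS cells (-0.53). ZNF318, needed for IgD expression in mouse B cells, had 55.1 ± 4.10 in sgMETTL1.3 cells and 78.4 ± 3.98 in sgNS cells (-0.50).

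All 14 listed factors of RNA, ribosomes and mitosis were described: 8 fell and none rose on the spike-in scale, with a median of -0.50, while as TPM 4 fell and 4 rose, with a median of -0.16. Among all tested genes 49.3% fell on the spike-in scale, and 55.9% of the other expressed genes, so 8 of 14 is near the background. As TPM 25.3% of all tested genes fell and 24.8% rose. Without sgMETTL1.3 replicate 1 on the spike-in scale the count was 9 that fell and 1 that rose. Beside that count, 61.4% of all tested genes fell and 6.43% rose. The 3 with the smallest p were ZNF207, ZNF593 and ZNF106. ZNF106, an RNA-binding protein, had 56.2, 55.6 and 63.8 in the sgMETTL1.3 libraries, against 91.4, 101 and 95.3 in the sgNS libraries (-0.70, limma adjusted p = 6.94e-05). Its groups did not overlap, and it also fell as TPM (-0.35).

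A list of genes of the KRAB corepressor and other silencing machinery, which also holds zinc finger genes of other names, was set beside the members. Of 26 described partner genes, among 31 listed, 18 fell and none rose on the spike-in scale, with a median of -0.51, and as TPM 10 fell and 7 rose, with a median of -0.16. The background on the spike-in scale was 49.3% of all tested genes and 55.9% of the other expressed genes that fell. Of all tested genes 6.40% rose on that scale, and as TPM 25.3% fell and 24.8% rose. The 19 machinery genes had 14 that fell (9 that fell and 5 that rose as TPM). The 7 other zinc finger genes, ZFP36L2, ZFP91, ZKSCAN1, ZSCAN21, ZBTB7A, CTCF and YY1, had 4 that fell (1 that fell and 2 that rose as TPM). FAM208A, a subunit of the HUSH silencing complex, had 58.9 ± 5.94 in sgMETTL1.3 cells and 117 ± 6.75 in sgNS cells (-0.98). KDM1A, a histone demethylase, had 62.6 ± 4.03 in sgMETTL1.3 cells and 111 ± 4.36 in sgNS cells (-0.81). DNMT1, which maintains DNA methylation, had 114 ± 12.9 in sgMETTL1.3 cells and 198 ± 7.48 in sgNS cells (-0.80). UHRF1 (-0.87), a reader of hemimethylated DNA, SUV39H2 (-0.80), a histone methyltransferase, and the HP1 protein gene CBX3 (-0.76) fell as well. TRIM28 and SETDB1, picked after their values were seen because they bind or follow the KRAB box, had log2 fold changes of -0.49 and -0.59. As TPM TRIM28 had -0.13 and was not called (limma adjusted p = 0.316), and SETDB1 had -0.24 and was called lower. The 45 expressed genes of other C2H2 names (ZBTB, ZKSCAN, ZSCAN and ZFP genes) had a median of -0.10, with 10 that fell and 4 that rose, and 0.23 as TPM, with 2 that fell and 21 that rose.

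Members were also split by position, without a test. The 92 members of chromosome 19 had a median log2 fold change of -0.00, with 21 that fell and 13 that rose, against -0.15 over the 148 on other chromosomes, with 41 that fell and 6 that rose. As TPM 2 fell and 40 rose on chromosome 19, and 11 fell and 54 rose elsewhere. On chromosome 19, 25 fell and 15 rose without sgMETTL1.3 replicate 1, and 57 fell and 13 rose elsewhere. The other expressed genes were split alike: the 607 on chromosome 19 had a median of -0.18 with 29.3% that fell, against -0.39 and 57.9% over the 9120 on other chromosomes. In that order 5.60% and 4.69% of them rose. As TPM 13.8% of the 607 fell and 36.6% rose, against 30.2% and 22.5% of the 9120. Without sgMETTL1.3 replicate 1 the median of the 607 was -0.34, with 358 that fell and 39 that rose. The 9120 then had -0.42, with 6255 that fell and 449 that rose, so these medians lay closer together. Over all genes tested without that library 61.4% fell and 6.43% rose. With a GC correction the medians of the 607 and the 9120 were -0.34 and -0.39. Those of the members were 0.01 on chromosome 19 and -0.14 elsewhere. Runs of ZNF-named rows, including those below the level cut, were treated as clusters where more than 1 Mb separated them. That gap was chosen after the values were seen. Near the end of the long arm, between 55476332 and 58481230 (GRCh38), the 28 members had a median of 0.20, with 3 that fell and 9 that rose (ZNF776, ZNF134, ZNF419, ZNF211, ZNF17, ZNF784, ZNF549, ZNF71 and ZNF552). As TPM 1 fell and 19 rose there, and 7 other genes in that interval had a median of 0.04. Without sgMETTL1.3 replicate 1 the median of these 28 was 0.07, with 6 that fell and 7 that rose.

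Clusters of the same chromosome differed in their median on the spike-in scale. Between 43525497 and 45076588, 9 members had a median of 0.17 with 1 that fell (ZNF180) and 3 that rose (ZNF221, ZNF224 and ZNF226). As TPM none fell and 6 rose there, with a median of 0.51, and without sgMETTL1.3 replicate 1 on the spike-in scale 3 fell and 3 rose. Between 11483427 and 12640098, 6 members had a median of -0.52, and ZNF443, ZNF627, ZNF700 and ZNF799 fell while none rose. As TPM 1 fell and 2 rose there, with a median of -0.19. Between 51571298 and 53580269, 13 members had a median of -0.17 with 5 that fell and none that rose. As TPM none fell and 2 rose there, with a median of 0.16, against 0.52 in the last cluster. On the spike-in scale these were -0.17 and 0.20, so both medians moved up nearly alike and came to share a sign. The cluster between 11483427 and 12640098 kept a negative median as TPM (-0.19). No test was made between clusters. Beside the counts of each cluster, 49.3% of all tested genes fell and 6.40% rose, and 25.3% and 24.8% as TPM.

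**Figure D4:**
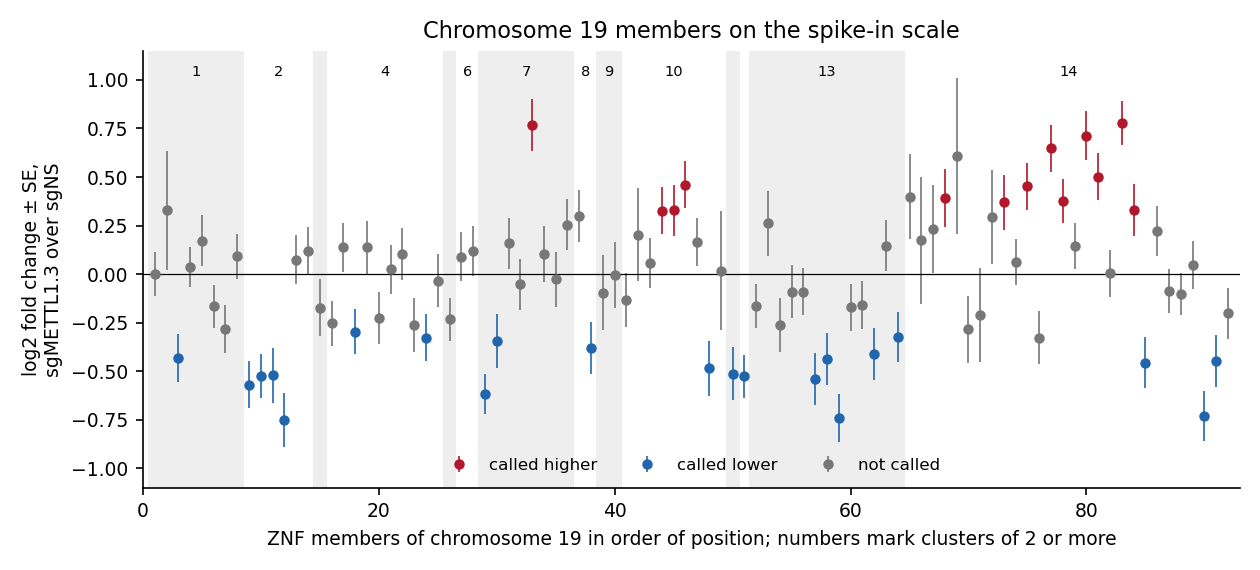
Log2 fold change of sgMETTL1.3 over sgNS on the spike-in scale (bars are SE) for the 92 members of chromosome 19, in order of position. Points are coloured by call, and clusters, set by all ZNF-named rows, are marked by shading and numbers. In the last cluster, 9 of 28 members rose and 3 fell, with a median of 0.20. In the second cluster 4 of 6 fell, with a median of -0.52.

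Members with a KRAB box pattern had a median of -0.06 over 116 genes (25 fell, 13 rose), against -0.16 over 120 genes without one (36 fell, 6 rose). As TPM 3 fell and 54 rose with the pattern, and 10 fell and 39 rose without it. The medians without sgMETTL1.3 replicate 1 were -0.02 with the pattern (29 fell, 20 rose) and -0.19 with no pattern (52 fell, 8 rose). Over all tested genes 49.3% fell and 6.40% rose, 25.3% and 24.8% as TPM, and 61.4% and 6.43% without that library. By fingers the medians were -0.18 for 0 to 4, -0.15 for 5 to 9, -0.09 for 10 to 14 and -0.08 for 15 or more. KRAB box, finger number and chromosome 19 overlap in these genes, so the classes share members.

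Transcript GC and level were set beside the members because both differ from those of other genes. Below 42% GC the 80 members had a median of -0.20, against -0.51 for other genes of that range; between 42% and 45% it was 0.00 against -0.47, between 45% and 55% -0.12 against -0.38, and at 55% or more -0.07 against -0.22. Without sgMETTL1.3 replicate 1 these were -0.13 against -0.47, 0.03 against -0.45, -0.16 against -0.41 and -0.19 against -0.38. The members lay above the other genes in each GC class with and without that library. By level, members of mean 5 to 10 had a median of -0.01 against -0.28, those of 10 to 20 had -0.08 against -0.32, and those of 20 or more had -0.22 against -0.40. Across members the Spearman coefficient of GC content with the log2 fold change was 0.16, and -0.15 without sgMETTL1.3 replicate 1; across other genes it was 0.31 and 0.11, a description with no test.

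**Figure D5:**
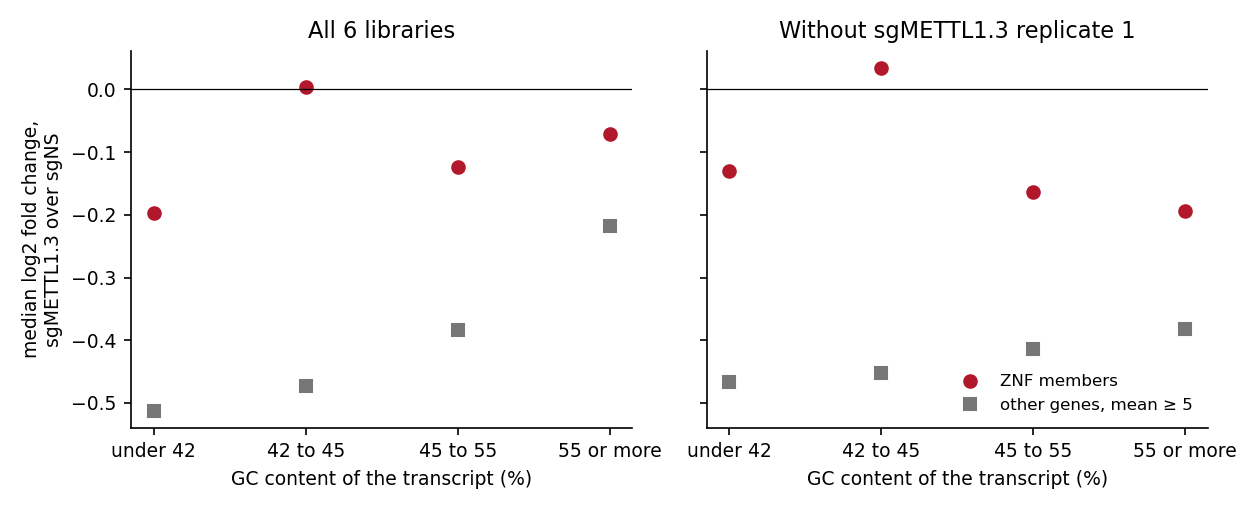
Median log2 fold change of sgMETTL1.3 over sgNS on the spike-in scale in 4 classes of transcript GC content (%), for the ZNF members and for other genes with a mean of at least 5, with all libraries and without sgMETTL1.3 replicate 1. The members lie above the other genes in all 4 classes in both, by the values given in the text.

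Of the 75 members that rose as TPM and were not called on the spike-in scale, the 5 with the smallest p as TPM were read. ZNF263 had 34.7, 30.2 and 34.6 in the sgMETTL1.3 libraries, against 25.8, 29.7 and 30.4 in the sgNS libraries, with log2 fold changes of 0.21 (limma adjusted p = 0.133) and, as TPM, 0.56. ZNF317 had 51.1 ± 3.41 in sgMETTL1.3 cells and 49.8 ± 3.01 in sgNS cells (0.04, and 0.39 as TPM). ZNF618 (0.12 and 0.45), ZNF830 (0.13 and 0.48) and the pseudogene ZNF767P (0.17 and 0.51) did alike. On the spike-in scale the groups of all 5 overlapped.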

How the data were processed

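Poly(A) RNA libraries from U-937 cells with sgMETTL1.3 or sgNS (3 each) were made from 300 ng of total RNA with ERCC spike-ins, per the labels. The submitters' processing notes name cutadapt, STAR and RSEM, with GRCh38 and hg38; tool versions and gene annotation: not given in the sources used here. Signal values as deposited are TPM times 1 factor per library that gives the 92 spike-in rows a sum of 38252, as read from the values, so depth is unknown and intervals for counting error cannot be had.

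Genes that reached 1 in at least 3 of 6 libraries (12449) were tested with limma 3.58.1 in R 4.3.3, on log2(value + 1) (trend, robust, no block, Benjamini-Hochberg at 0.05). This scale understates changes of low genes. TPM was rescaled without spike-ins. The fit was tested on simulated data. Python 3.11.15, pandas 2.3.3 and biopython 1.88 gave annotation from GENCODE 29 (translated coding sequences, C2H2 pattern C-x2-4-C-x12-H-x3-5-H) and RefSeq promoters.

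Named genes were METTL1, the 10 highest and 10 lowest called members without overlap, the 6 most abundant, up to 3 of smallest p per role list, 6 partner genes, and 5 members called as TPM only. Members, lists and rules were chosen with earlier results of these data known. Alternatives were other scalings, filters, pseudocounts, a GC correction, a replicate block and fits that each left out 1 library.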

Additional observations from a re-analysis of the deposited data

How the results depend on the processing

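Across 21 settings the members' median stood 0.21 to 0.30 above that of the other genes, and in all 21 a smaller share of members was called lower. Not all of these settings could change that distance. Changes to the test alone, such as the replicate block, left every fold change as it was, with a distance of 0.259. Scaling by 1 factor per library, as TPM or by a median of ratios, moves members and other genes nearly alike (0.242 and 0.245). The settings are thus not separate checks of the distance. METTL1 kept its call under all 20 alternatives, as did 24 of 44 other named genes. The members' median of -0.11 turned to 0.22 as TPM, 0.19 with a median of ratios, 0.21 with quantile normalization, 0.23 with GC correction as TPM and 0.26 without sgMETTL1.3 replicate 1 as TPM. In the same order of settings the 62 members that fell became 13, 20, 15, 24 and 21. The 19 that rose became 94, 86, 84, 129 and 151. Of all tested genes 25.3%, 28.9%, 26.0%, 33.9% and 34.3% fell in these settings, and 24.8%, 23.0%, 23.9%, 30.7% and 36.3% rose. Members that rose numbered 42 with the GC correction, 35 with it and without sgMETTL1.3 replicate 1, 12 without a filter, 36 of 335 at a mean of at least 1, and 9 of 161 at a mean of at least 10. With 1 library left out, 8 to 28 rose and 46 to 82 fell, with medians of -0.15 to -0.06. Without sgMETTL1.3 replicate 3, 9 rose (3.75%), beside 4.34% of all tested genes. Without sgNS replicate 1, 8 rose (3.33%), beside 4.37%. Without sgNS replicate 2 or 3, 11 rose (4.58%), beside 5.16% and 5.55%. The share of members that rose was thus below that of all tested genes in these fits. Without sgMETTL1.3 replicate 2 it was 8.75%, beside 8.41%, and without sgMETTL1.3 replicate 1 11.7%, beside 6.43%. Among named genes called on the spike-in scale, signs turned for ZNF93 as TPM (0.023), with GC correction as TPM (0.14) and without sgMETTL1.3 replicate 1 as TPM (0.11), for ZNF148 with GC correction as TPM (0.027) and for ZNF395 with quantile normalization (0.0088). Genes not called turned as well, such as ZNF618 with the GC correction (-0.042) and ZNF317 without sgMETTL1.3 replicate 1 (-0.0051). ZNF410 turned to 0.063 as TPM, 0.028 with a median of ratios, 0.095 with quantile normalization, 0.082 with GC correction as TPM and 0.15 without sgMETTL1.3 replicate 1 as TPM. The cause was not tested.

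Same-numbered libraries did not deviate together (correlations of -0.014, 0.0046 and -0.039), so no pairing by number was seen. Because sgMETTL1.3 replicate 1 stood apart in its group by GC content, these correlations cannot exclude such pairing. With a replicate block 54 members fell (22.5%) and 16 rose (6.67%), beside 47.1% and 6.54% of all tested genes. With the GC correction added 70 fell (29.2%) and 28 rose (11.7%), beside 54.6% and 7.05%. Depth is unknown, so what it limits cannot be given.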
